A study of Mus musculus with 6 samples.

Results

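The genes for the chemokines Cxcl9, Cxcl10 and Cxcl11 lie side by side on mouse chromosome 5, and 4 neighbours, Naaa, Sdad1, Art3 and Nup54, flank or span them. The 7 genes were chosen by name: every enhancer-to-gene pair in the deposited activity-by-contact (ABC) tables whose target gene was in this set was taken. They make up 7 of the 32049 target genes in the tables, with 21 pairs in control cells and 37 pairs in interferon-treated cells. Those pairs involve 10 of 33083 element intervals in the control table and 14 of 35906 in the interferon table.

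The tables come from cultured primary mouse oligodendrocyte progenitor cells (mOPCs), taken from the brains of pups of postnatal days 4 to 6 labelled as strain C57BL/6j. All cells, controls included, carried Sox10-Cre/RCE, in which Cre under a promoter of the oligodendrocyte lineage switches on a green reporter (per the methods, the reporter line had a C57BL/6xCD1 mixed background), were isolated from pooled brains by the reporter or by the surface marker CD140a, and grew in proliferation medium with bFGF and PDGF-AA. From 24 h after passaging, cells were kept in that medium (Ctr-OPCs) or in medium with 100 ng/mL interferon gamma (IFN-γ-OPCs), and 3 H3K27ac HiChIP libraries were made for each. HiChIP records which stretches of chromatin touch each other at sites carrying H3K27ac, a histone mark of active enhancers and promoters. The deposited tables hold 1 value per condition, pooled over its libraries, so that no spread between replicates can be computed and no difference below carries a test. The read depth behind a value is unknown. These are values of bulk cultures, in which a change in the share of cells that use an element and a change within each cell cannot be told apart.

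Cxcl9, Cxcl10 and Cxcl11 are ligands of the receptor Cxcr3 and draw activated T cells and natural killer cells to inflamed tissue. Regulatory DNA that responds to interferon gamma often holds a palindrome known as the gamma-activated sequence (GAS). Factors of the Irf family and the complex formed after type I interferon bind a second motif, the interferon-stimulated response element (ISRE). In the ABC model an enhancer's share in a gene's regulation is its activity multiplied by its contact with the gene's promoter, divided by the same product summed over all elements near that gene.

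In mm10 coordinates with GENCODE names, Naaa (ENSMUSG00000029413, 92257659 to 92278170, minus strand), Sdad1 (ENSMUSG00000029415, 92284010 to 92310479, minus strand) and Cxcl9 (ENSMUSG00000029417, 92321347 to 92328079, minus strand) come in that order along chromosome 5. Art3 (ENSMUSG00000034842, 92331827 to 92414628) lies on the plus strand. Cxcl10 (ENSMUSG00000034855, 92346638 to 92348889) and Cxcl11 (ENSMUSG00000060183, 92359544 to 92365485) lie within the span of Art3, on the opposite strand. Nup54 (ENSMUSG00000034826, 92415540 to 92435219, minus strand) follows. GENCODE M21 classes Cxcl11 as a polymorphic pseudogene and the other 6 genes as protein coding. Art3 belongs to the mono-ADP-ribosyltransferases, Nup54 is a protein of the nuclear pore, Sdad1 takes part in making the large ribosomal subunit, and Naaa is a lysosomal amidase of lipid amides.

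The sequences below are those of the 4 elements with the highest ABC scores for a chemokine in IFN-γ-OPCs and of the promoter in which a motif was found. Elements are named E01 to E17 in order along the chromosome. E06 (chr5:92332408-92332707 of its 500 bp shown), E08 (chr5:92353477-92353776), E10 (chr5:92368966-92369265) and E11 (chr5:92371263-92371562) are given on the plus strand of mm10. The 250 bases before the Cxcl10 start site (chr5:92348890-92349139) are given on the minus strand, from RefSeq (GRCm38.p6). Capitals mark GAS matches (TTCNNNGAA) and ISRE matches (GAAA, 2 bases of any kind, then GAAA), searched on both strands.
E06: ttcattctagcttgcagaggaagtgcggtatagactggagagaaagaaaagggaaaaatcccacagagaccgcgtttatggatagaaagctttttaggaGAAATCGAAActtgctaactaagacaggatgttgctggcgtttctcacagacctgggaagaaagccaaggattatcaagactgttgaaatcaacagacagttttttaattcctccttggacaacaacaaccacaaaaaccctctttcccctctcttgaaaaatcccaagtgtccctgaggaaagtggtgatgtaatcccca
E08: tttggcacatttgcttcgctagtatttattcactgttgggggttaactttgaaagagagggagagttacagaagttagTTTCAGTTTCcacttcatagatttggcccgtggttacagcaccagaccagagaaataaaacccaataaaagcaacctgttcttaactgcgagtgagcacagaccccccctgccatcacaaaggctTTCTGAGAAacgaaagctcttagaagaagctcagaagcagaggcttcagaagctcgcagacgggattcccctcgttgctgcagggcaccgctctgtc
E10: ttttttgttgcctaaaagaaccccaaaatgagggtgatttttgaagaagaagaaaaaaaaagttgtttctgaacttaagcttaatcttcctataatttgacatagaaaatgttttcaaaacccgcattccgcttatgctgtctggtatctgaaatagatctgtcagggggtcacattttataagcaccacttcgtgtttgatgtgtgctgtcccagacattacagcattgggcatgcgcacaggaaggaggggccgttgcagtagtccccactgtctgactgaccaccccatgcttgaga
E11: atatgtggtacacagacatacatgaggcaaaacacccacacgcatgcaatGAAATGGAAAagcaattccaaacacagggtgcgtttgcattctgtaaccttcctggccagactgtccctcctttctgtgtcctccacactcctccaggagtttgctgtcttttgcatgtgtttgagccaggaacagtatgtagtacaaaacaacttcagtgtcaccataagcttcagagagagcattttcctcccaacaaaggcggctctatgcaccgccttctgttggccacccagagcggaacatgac
Cxcl10 promoter: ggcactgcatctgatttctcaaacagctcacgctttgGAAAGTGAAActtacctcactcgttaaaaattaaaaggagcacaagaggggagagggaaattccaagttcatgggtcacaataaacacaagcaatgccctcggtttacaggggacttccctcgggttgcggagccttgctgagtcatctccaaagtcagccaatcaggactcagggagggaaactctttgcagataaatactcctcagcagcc

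E06, within Art3 4.58 kb upstream of the Cxcl9 start site, held the ISRE match GAAATCGAAA. E08, in an intron of Art3 4.84 kb upstream of Cxcl10, held the GAS match TTCTGAGAA and the ISRE match TTTCAGTTTC, found on the minus strand. In IFN-γ-OPCs, 1.56% of all elements held both motifs in the 500 bp around their centre. In the control table this ISRE match, which starts at 92353555, began in the gap between 2 intervals (92353050 to 92353549 and 92353559 to 92354058) and ran into the second, and neither held it whole. E11, 6.03 kb upstream of Cxcl11, held the ISRE match GAAATGGAAA in both tables, and E10, 3.63 kb upstream of Cxcl11, held neither motif. Of the 14 intervals in IFN-γ-OPCs, 1 held a GAS match and 4 an ISRE match, where the shares over all elements were 15.2% and 8.6%. Of the 10 intervals in Ctr-OPCs, 1 held a GAS match and 2 an ISRE match, beside 13.9% and 5.41% of all elements. The fourth ISRE element was E16, described below. A promoter sequence was found for 6 of the 7 genes, and only that of Cxcl10 held a match, GAAAGTGAAA, starting 213 bases before the start site. Among all 32851 promoters of this length 7.02% held a GAS match and 2.98% an ISRE match. A match is a description of the letters and no evidence of binding.

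For the 3 chemokine genes the connections, pairs with an ABC score above 0.05, were counted in each condition. The score is a share of all activity times contact near a gene, so this count does not measure the amount of enhancer input. Cxcl9 had 0 connections in Ctr-OPCs against 3 in IFN-γ-OPCs. Cxcl10 went from 0 to 4, with 2 of the 4 close to the limit at 0.0515 and 0.0504, and Cxcl11 from 2 to 4. With the power-law score Cxcl10 went from 1 to 3, and with equal numbers of top pairs from both tables from 0 to 2. Among the neighbours, Art3 went from 0 to 3 and Sdad1 from 0 to 2, Nup54 had 1 in both conditions, and Naaa went from 1 to 0. The 7 genes had 4 connections in Ctr-OPCs against 17 in IFN-γ-OPCs, of which the chemokines held 2 and 11. More connections in IFN-γ-OPCs were thus seen for 5 of 7 genes, where 37.4% of the 12779 genes with a connection in either condition had more. A gain of 3 or more, as for Cxcl9, Art3 and Cxcl10, was seen in 135 genes (1.06%), and a gain of 4 or more in 24 genes. The median change was 2 for the 7 genes and 0 over all genes with a connection.

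**Figure D1:**
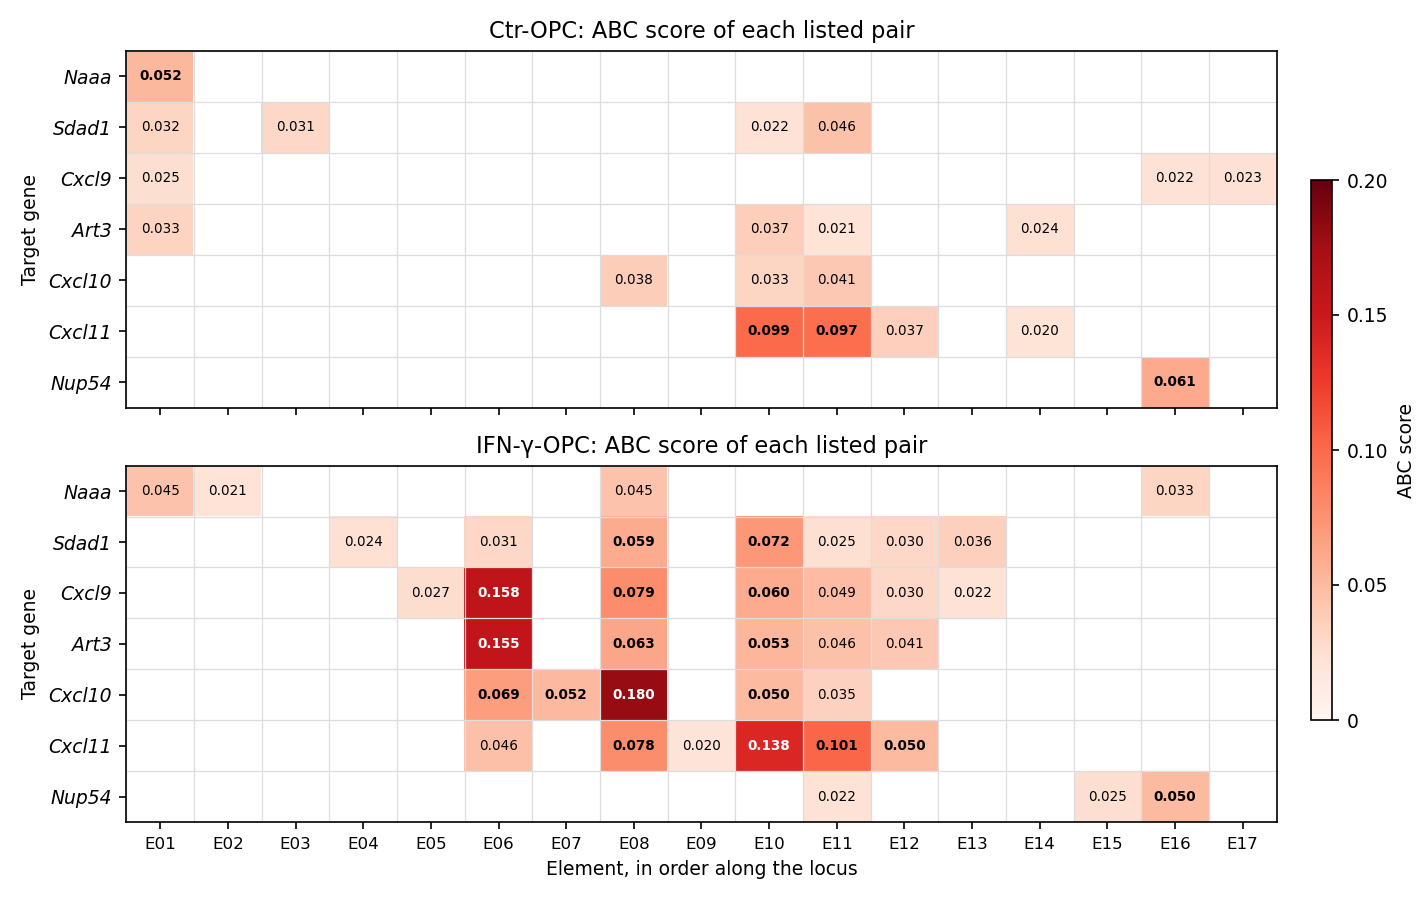
ABC score (colour and printed value) of every listed pair between the 7 genes (rows) and the 17 elements (columns) in Ctr-OPCs, top, and IFN-γ-OPCs, bottom. Empty cells are pairs that are not listed, scores above 0.05 are in bold, and of the 2 control intervals at E08 the higher score is shown. The scores above 0.1 all lie in IFN-γ-OPCs, for Cxcl9, Art3, Cxcl10 and Cxcl11.

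The strongest pairs differed between the chemokines, and in IFN-γ-OPCs each chemokine's highest score fell on the nearest element upstream of it, all inside Art3. For Cxcl9 it was E06, with a score of 0.158 in IFN-γ-OPCs. For Cxcl10 it was E08, with 0.180. For Cxcl11 it was E10, with 0.0991 in Ctr-OPCs against 0.138 in IFN-γ-OPCs, followed by E11 with 0.0967 and 0.101. Art3 itself starts 0.830 kb from E06 and had a score of 0.155 there. The highest score of Sdad1 was 0.0461 (E11) in Ctr-OPCs against 0.0719 (E10) in IFN-γ-OPCs. Nup54 had its highest score with E16 in both conditions, 0.0607 and 0.0504. The highest score of Naaa was 0.0516 with E01, in its own intron, in Ctr-OPCs, and 0.0451 with E08, 75.6 kb away, in IFN-γ-OPCs. Above a score of 0.1 there were 0 of 21 pairs in Ctr-OPCs against 5 of 37 in IFN-γ-OPCs, where 3.56% and 3.50% of all pairs in the tables passed.

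Activity, the other factor beside contact, combines chromatin accessibility and H3K27ac at an element and is given in the units of the model. For the study's ATAC-seq the treatment lasted 48 h. The 8 elements with a connection to any of the 7 genes in either condition are described one by one, 6 of them inside Art3 (E06, E07, E08, E10, E11 and E12) and the others outside it (E01 and E16). E06, E07, E08 and E12 had a connection in IFN-γ-OPCs only and so were chosen where their scores were high, and nothing is read from their number.

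E06 (92332408 to 92332907), which lies near the start of Art3 and overlaps one of its untranslated exons, reached an activity of 2.56 in IFN-γ-OPCs, above 93.7% of all elements. No element at E06 is listed for any gene in Ctr-OPCs. Had the contact with Cxcl9 (with the model's added constant) been the 0.0412 of IFN-γ-OPCs, an activity above 0.184 would have been enough for E06 to be listed with Cxcl9 in Ctr-OPCs. The activity of 2.56 was 13.9 times that limit. With Art3 the limit was 0.214.

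E08 (92353477 to 92353976) reached an activity of 3.31 in IFN-γ-OPCs, the highest among the elements inside Art3. The 2 intervals that overlap it in Ctr-OPCs had 0.503 and 0.296. Against the interval with the larger overlap the activity was 11.2-fold higher, rank 2 of the 19332 elements matched between the tables, and against the sum of both intervals it was 4.15-fold higher. With Cxcl10 its contact as deposited, without that constant, was 0.0337 in Ctr-OPCs against 0.0395 in IFN-γ-OPCs.

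E10 (92368678 to 92369553) had an activity of 1.08 in Ctr-OPCs against 2.60 in IFN-γ-OPCs, a 2.41-fold difference. Its interval was also wider, 876 bp in IFN-γ-OPCs and 500 bp in Ctr-OPCs, and per base the activity was 1.38-fold higher. Over all elements, width and activity had a Spearman correlation of 0.0337 in Ctr-OPCs against 0.0548 in IFN-γ-OPCs. Most intervals at the locus were 500 bp wide, and this correlation does not speak to a widened interval. The part of the wider interval in the higher activity of E10 was not tested. E11 (92371263 to 92371762) had 1.23 in Ctr-OPCs against 1.91 in IFN-γ-OPCs, 1.55-fold higher. E12 (92377146 to 92377645), 11.9 kb upstream of Cxcl11, had 0.499 and 1.23, 2.47-fold higher, and its score for Cxcl11 went from 0.0366 to 0.0502. All of these are in introns of Art3.

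E07 (92342545 to 92343221), an intronic element of Art3 6.01 kb downstream of the Cxcl10 start site, is listed in IFN-γ-OPCs only. Its activity there was low, 0.460, and its score for Cxcl10 was 0.0515. Its deposited contact with Cxcl10, 0.0826, was the highest of any pair of the 7 genes. Of the 500 bp around its centre 65.8% was masked as repeats, where the median over all elements in IFN-γ-OPCs was 9.2%. Whether this affects its values was not tested. E13, with an activity of 0.813 and scores of 0.0357 for Sdad1 and 0.0224 for Cxcl9, and E09, with 0.389 and a score of 0.0203 for Cxcl11, were also listed in IFN-γ-OPCs only. E14, in an intron of Art3 nearer to Nup54, was listed only in Ctr-OPCs, with an activity of 0.735 and scores of 0.0237 for Art3 and 0.0205 for Cxcl11.

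Outside Art3 the activities were closer to each other. E01, in an intron of Naaa (92263946 to 92264445), had 2.03 in Ctr-OPCs against 2.20 in IFN-γ-OPCs. E16 (92505328 to 92505827), at an untranslated exon of Scarb2, which encodes a lysosomal membrane protein, had 4.04 in both. E15, in an intron of Scarb2, had 1.80 and 2.04. E17, in an intron of Shroom3, had 2.92 and 2.58. The weak elements E02 and E03 in Sdad1, E04 between genes and E05 in Cxcl9 had activities from 0.303 to 0.494, each listed in 1 condition. Among the 8 elements matched between the conditions, 3 (E08, E10 and E12) were at least 2-fold higher in IFN-γ-OPCs, beside 2.66% of all 19332 matched elements. Their median log2 ratio was 0.41, against -0.084 over all matched elements. Of the 17 elements, 6 were listed with the 7 genes in both conditions, 3 only in Ctr-OPCs and 8 only in IFN-γ-OPCs. Among the 14 intervals in IFN-γ-OPCs 7 overlapped no element listed for any gene in Ctr-OPCs, and 44.5% of all elements did not. Of the 10 intervals in Ctr-OPCs it was 2, against 40% of all elements.

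**Figure D2:**
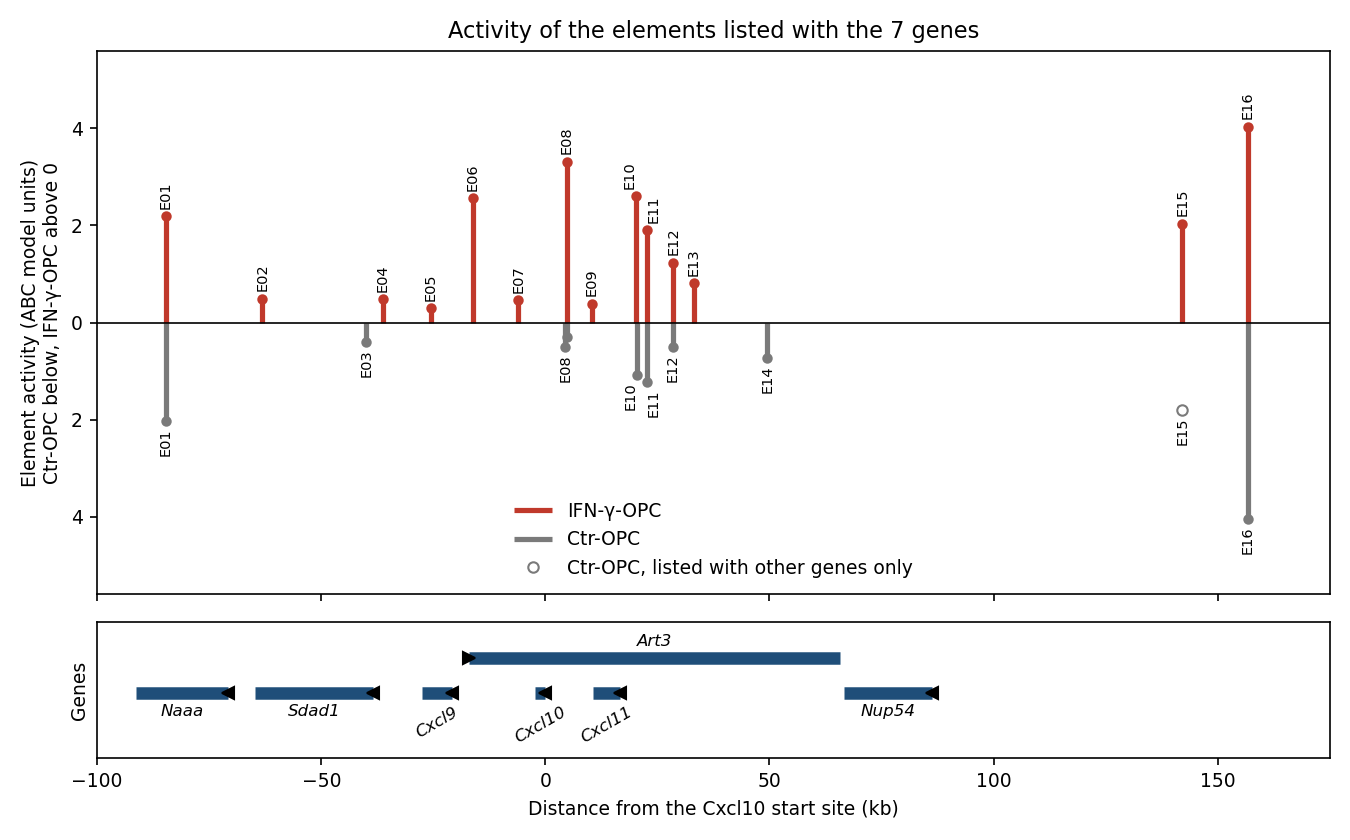
Element activity in model units along the locus, IFN-γ-OPCs above and Ctr-OPCs below 0, against the distance from the Cxcl10 start site in kb; the lower panel shows the 7 genes, with an arrowhead at each start site. E08, E10, E11 and E12, inside Art3, are higher in IFN-γ-OPCs, E06 is listed there only, E01 and E16 at the flanks are alike, and E17, 557 kb from the start site, lies outside the plot.

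Contact, the frequency with which an element and a promoter were joined in HiChIP, was compared over the 12 pairs of the 7 genes that are listed in both tables. Its median log2 ratio was -0.034, with 6 pairs higher and 6 lower in IFN-γ-OPCs, while the median log2 ratio of activity over the same pairs was 0.95. The product of both had a median log2 ratio of 1.09 and was higher in 10 of 12 pairs, where 47.9% of all 29748 matched pairs had a higher product. Over all these pairs the median log2 ratio was -0.092 for activity, 0.053 for contact and -0.028 for the product. The change in activity was larger than that in contact in 8 of 12 pairs, and in 48.4% of all matched pairs. Activity belongs to the element, and E10 and E11 each enter the 12 pairs with Art3, Sdad1, Cxcl10 and Cxcl11. Their activity ratios are thus counted repeatedly, and the 12 pairs are not independent of each other. Contacts in these ratios include the small constant that the model adds. Contact was at least 1.5-fold higher in 2 pairs and at least 1.5-fold lower in 1, where 12% and 8.30% of the 29748 matched pairs of all genes passed those limits.

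Both of the higher pairs and the lower pair belonged to neighbours of the chemokines. On the same scale Art3 with E11 had a contact of 0.00742 in Ctr-OPCs against 0.0163 in IFN-γ-OPCs. Sdad1 with E10 had 0.00991 and 0.0190. Sdad1 with E11, the next element along the chromosome, went the other way, from 0.0181 to 0.00894, and was the only one of the 12 pairs besides Nup54 with E16 in which the product was lower in IFN-γ-OPCs. For the 6 chemokine pairs the contact ratio lay between 0.852 (Cxcl11 with E12) and 1.17 (Cxcl10 with E08). Without the constant, the contact of E06 in IFN-γ-OPCs was the same, 0.0399, with Cxcl9 and with Art3. That of Cxcl11 was the same, 0.0390, with E10 and with E11. Contacts are resolved in bins of 5 kb. The Art3 start site lies in the same bin as E06, and the Cxcl11 start site in the same bin as E10. These equal values cannot be read as separate measurements.

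**Figure D3:**
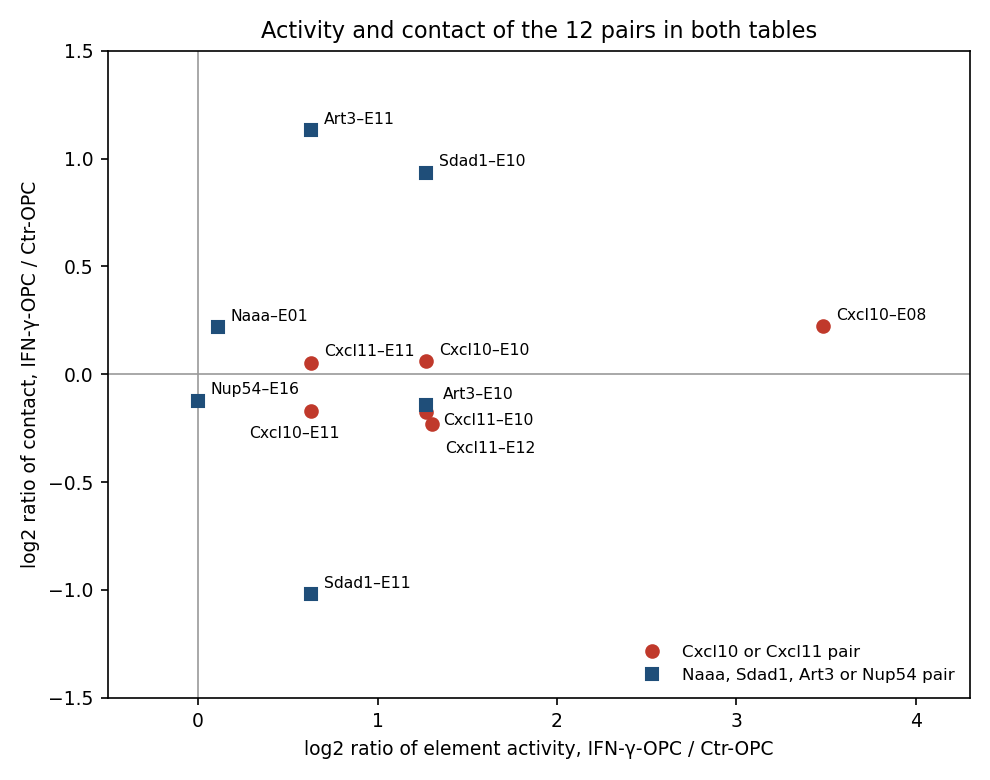
Each point is 1 of the 12 pairs listed in both tables; the x axis gives the log2 ratio of element activity and the y axis that of contact, IFN-γ-OPC over Ctr-OPC. Circles are Cxcl10 and Cxcl11 pairs and squares are pairs of the other genes. On the x axis 11 of the 12 points lie right of 0, and the circles lie close to 0 on the y axis. E10 and E11 each give several points with the same x value.

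A score can stay the same while its product rises, because the gene total in the denominator rises too. E11 and Cxcl11 had a product of 0.0478 in Ctr-OPCs against 0.0768 in IFN-γ-OPCs, 1.61-fold higher, and scores of 0.0967 and 0.101. E11 and Cxcl10 had 0.0189 and 0.0260, and the score was lower, 0.0411 and 0.0347. E01 and Naaa had 0.0197 and 0.0248, and the score fell below the limit for a connection, from 0.0516 to 0.0446. The single connection lost among the 7 genes was therefore a pair with a higher product in IFN-γ-OPCs, and with the power-law score Naaa had 1 connection in both conditions.

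The gene total, the sum of activity times contact over all elements near a gene, was computed for each pair as its product divided by its score. It was 0.378 in Ctr-OPCs against 0.668 in IFN-γ-OPCs for Cxcl9, a log2 ratio of 0.82, rank 31 of 20321 genes with a total in both tables. Cxcl10 had 0.460 and 0.749, a log2 ratio of 0.70 and rank 62. Cxcl11 had 0.494 and 0.757, a log2 ratio of 0.62, and Art3 had 0.440 and 0.678, also 0.62. Naaa (0.382 and 0.556, log2 ratio 0.54) and Sdad1 (0.485 and 0.686, log2 ratio 0.50) were higher as well, and Nup54 was the least different (0.558 and 0.616, log2 ratio 0.14). At least 1.5-fold higher totals were seen in 4 of 7 genes, the 3 chemokines and Art3, beside 0.615% of all 20321 genes. The median log2 ratio was 0.62 for the 7 genes and -0.066 over all genes. The 7 totals sum over many of the same elements and are not independent of each other.

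Listed elements held a larger part of the total in IFN-γ-OPCs for all 7 genes, as they did for 54.3% of the 20321 genes listed in both tables. Which elements are listed is set by the score in each table on its own, and the IFN-γ-OPC table lists more pairs in all (71478 against 66637). For Cxcl9 they held 7.02% of the total in Ctr-OPCs against 42.5% in IFN-γ-OPCs. For Cxcl10 the shares were 13.4% and 38.6%, for Cxcl11 25.3% and 43.5%, and for Art3 11.5% and 35.8%. Sdad1 had 13.1% and 27.6%, Naaa 5.16% and 14.4%, and Nup54 6.07% and 9.74%. The rest of each total came from elements with scores under 0.02 and from the promoters, neither of which the tables list.

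**Figure D4:**
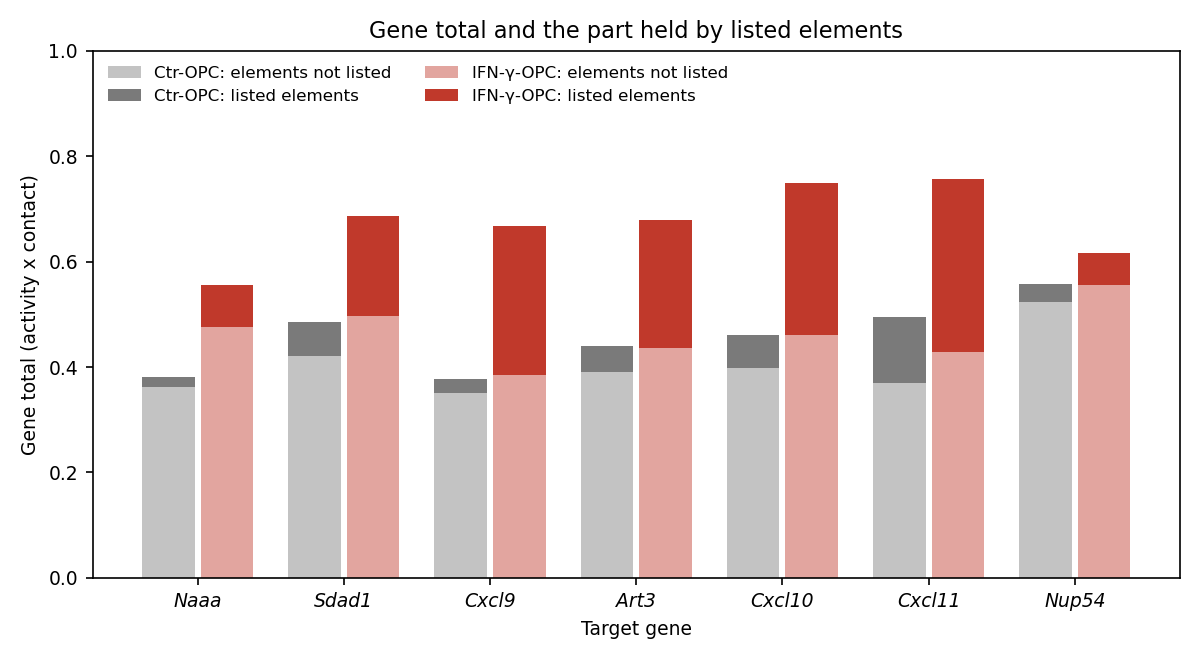
Gene total (activity times contact, summed over elements) of the 7 genes in Ctr-OPCs (grey) and IFN-γ-OPCs (red), with the part from listed elements in the darker shade on top of the part from elements that are not listed. The darker part is larger in IFN-γ-OPCs for all 7 genes, and reaches 43.5% of the bar for Cxcl11.

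The tables also rank the activity of each gene's promoter, as a quantile from 0 to 1 over all genes of the condition. Art3 had 0.462 in Ctr-OPCs against 0.820 in IFN-γ-OPCs, Cxcl10 had 0.642 and 0.789, and Cxcl11 had 0.417 and 0.610. Cxcl9 went the other way, with 0.618 and 0.472. Sdad1 (0.777 and 0.779), Nup54 (0.892 and 0.919) and Naaa (0.756 and 0.716) differed less. Only genes with a quantile of at least 0.4 are in the tables, so Cxcl11 in Ctr-OPCs was near the lower limit.

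Several elements were listed with more than 1 of the genes. In IFN-γ-OPCs, E06, E08, E10 and E11 were listed with all 3 chemokines, while in Ctr-OPCs 0 elements were listed with all 3. Of the 9 intervals listed with a chemokine in Ctr-OPCs, with E08 counted as 2, 5 (55.6%) were also listed with a neighbour. Of the 9 in IFN-γ-OPCs it was 6 (66.7%). Neither control interval at E08 was listed with a neighbour, so the control share is lower for counting E08 as 2. Seen from the neighbours, 5 of their 6 elements in Ctr-OPCs (83.3%) and 6 of 11 in IFN-γ-OPCs (54.5%) were listed with a chemokine. Over the whole tables, 40.1% and 39.7% of elements were listed with at least 2 target genes. Art3 shared 4 of them in Ctr-OPCs against 5 in IFN-γ-OPCs, Sdad1 shared 3 and 6, and Nup54 and Naaa shared 1 in each condition. Among connections alone, 0 of 2 chemokine elements were shared with a neighbour in Ctr-OPCs and 3 of 6 (50%) in IFN-γ-OPCs, where E06, E08 and E10 were shared with Art3 and the last 2 also with Sdad1. Of all connected elements, 29.0% in the Ctr-OPC table and 28.3% in the other had connections with at least 2 target genes of any kind.

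E08 was listed with 6 of the 7 genes in IFN-γ-OPCs, all but Nup54, and was connected with 5, all but Naaa. Its scores were 0.180 for Cxcl10, 0.0787 for Cxcl9, 0.0781 for Cxcl11, 0.0630 for Art3, 0.0594 for Sdad1 and 0.0451 for Naaa. With other genes included it had 10 target genes, and 5.19% of all elements in the table had 6 or more. E10 had 9 target genes and connected with 5 of the 7 genes. Of all target genes, E10 connected with 7 and E08 with 6. E11 was also listed with 6 of the 7 genes. In Ctr-OPCs the 2 intervals at E08 were listed with Cxcl10 at scores of 0.0382 and 0.0225, and with no other of the 7 genes.

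The genes listed with the most of a chemokine's elements in IFN-γ-OPCs were taken as those most like it, by the number of shared elements and then by the shared part of both genes' elements. For Cxcl9, with 7 elements, these were Sdad1 (6 shared), the processed pseudogene Gm2673 (6) and Art3 (5). For Cxcl10, with 5 elements, they were Art3, Cxcl11 and Cxcl9, each with 4, and Sdad1 and Gm2673 also shared 4. For Cxcl11, with 6 elements, they were Gm2673 (6), Art3 (5) and Cxcl9 (5), and Sdad1 also shared 5.

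Within 250 kb of the Cxcl10 start site 13 other target genes were listed, 9 of them in both tables. Gm2673, whose start site lies within the span of Cxcl11, had a total of 0.373 in Ctr-OPCs against 0.694 in IFN-γ-OPCs, a log2 ratio of 0.90, and 1 and 2 connections. It was the only one of the 9 with a total at least 1.5-fold higher, and the median log2 ratio of the 9 was 0.34. Fam47e went from 0 to 1 connections and Ppef2, a phosphatase gene beyond Naaa, from 2 to 1. U90926 with 3 connections and Gm43599 and Mir6415 with 1 each were listed in Ctr-OPCs only, so that their totals in IFN-γ-OPCs are unknown.

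**Figure D5:**
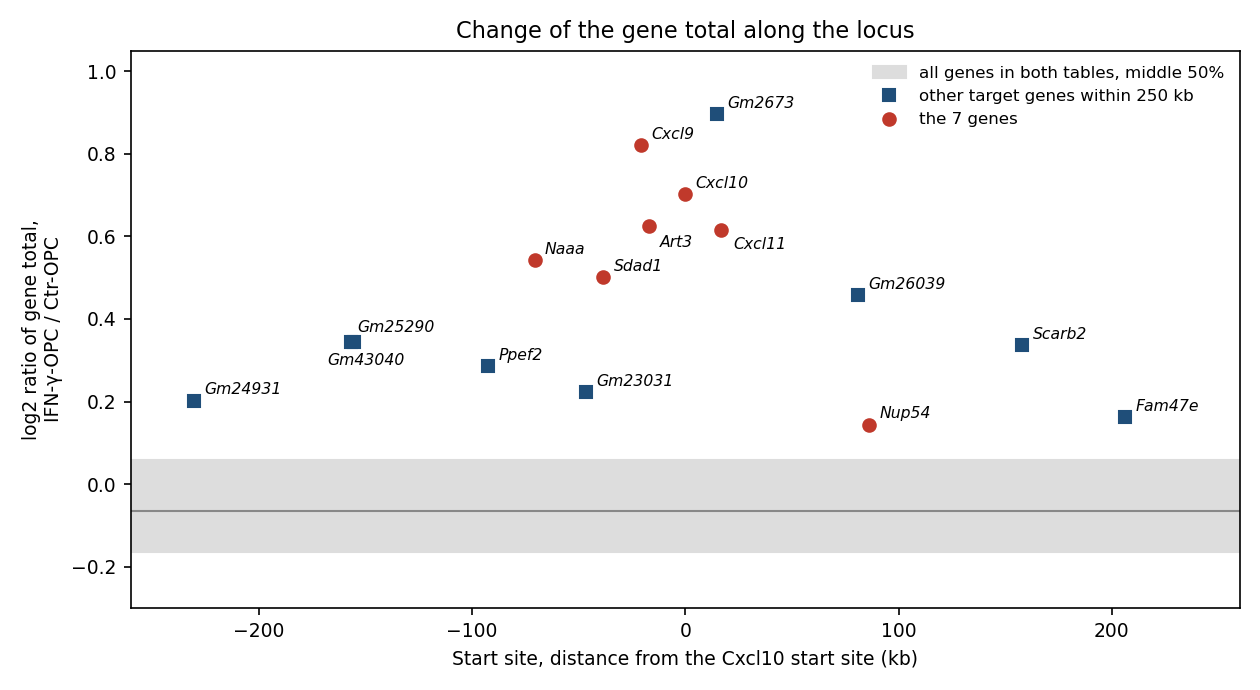
log2 ratio of the gene total, IFN-γ-OPC over Ctr-OPC, against the distance of each start site from that of Cxcl10 in kb, for the 7 genes (circles) and the 9 other target genes within 250 kb listed in both tables (squares). The grey band and line give the middle 50% and the median (-0.066) of all genes; all 16 points lie above the band, and the highest are Gm2673, Cxcl9 and Cxcl10.

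Other chemokine and receptor genes of the CXC, CX3C and XC families were set beside the locus. Of 23 genes, 19 were listed in either table and 12 in both, with 4 connections in Ctr-OPCs against 5 in IFN-γ-OPCs. Cxcl1, a ligand that draws neutrophils, and Cxcl13, which draws B cells, each went from 0 to 1 connections, and Cxcl5, another neutrophil ligand, from 1 to 0. None of the 12 had a total that differed 1.5-fold. Their median log2 ratio was -0.043, and that of Cxcl13 was 0.37. Cxcr3, the receptor of the 3 chemokines, was listed in Ctr-OPCs only, with 4 pairs and 0 connections.

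Microglia and endothelial cells can also make Cxcl9 and Cxcl10, and markers of several cell types were read from the promoter quantiles. All 6 OPC markers (Pdgfra, Cspg4, Sox10, Olig1, Olig2 and Ptprz1) were listed in both tables, with quantiles from 0.852 to 0.982 in Ctr-OPCs and from 0.815 to 0.994 in IFN-γ-OPCs. Of 6 microglial markers 3 were listed in Ctr-OPCs (0.473 to 0.782) and 5 in IFN-γ-OPCs (0.471 to 0.825), Aif1 and Tmem119 in IFN-γ-OPCs only and Itgam in neither. Of 4 astrocyte markers 3 were listed in each, with quantiles of 0.771 and 0.783 for Gfap, 0.620 and 0.478 for Aldh1l1, and 0.590 and 0.451 for Gja1, and of 2 endothelial markers 0 and 2 (0.415 and 0.466). Their part in the differences at the locus was not tested.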

How the data were processed

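H3K27ac HiChIP was measured in 6 libraries, 3 labelled Ctrl and 3 labelled IFN. Per the labels and methods, reads were aligned to mm10 with HiC-Pro, and ATAC-seq and H3K27ac CUT&RUN alignments with HiChIP contacts went into the ABC model at default parameters. The authors deposited 1 table per condition, pooled over libraries. The deposited activity is a signal value, contact and its product with activity are in the model's own units, the deposited ABC score runs from 0 to 1, and the deposited promoter quantile is a fraction. The labels name a single contact file for all 6 libraries, yet contacts differ between the tables. How the tables were scaled to each other is not given in the sources used here. Each table lists pairs with scores of at least 0.02 and quantiles of at least 0.4, and no pair of promoter class, so an unlisted pair is not a pair without contact.

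Target identifiers were joined to GENCODE M21. Activity and contact are as deposited, and contacts in ratios include the model's added constant. Elements were matched between tables as mutual best overlaps of at least 1 bp. A connection had a score above 0.05, as in the study's methods. Coordinates are 1-based. Tables were handled with Python 3.11.15, pandas 2.3.3 and NumPy 2.4.6 and drawn with matplotlib 3.10.9, and matching and totals were tested on simulated data. The text describes in full the elements with a score above 0.05 for any of the 7 genes in either condition, names genes nearby or of the chemokine list whose connections differed or whose total differed over 1.5-fold, and names for each chemokine the 3 genes sharing most of its elements. The genes and lists were chosen with earlier results of these data known. The pair lists in other layouts held the same scores and were not used. Alternatives tried were other score limits, the power-law contact, scaling by table medians, other matching of elements, 5 kb bins and activity per base.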

Additional observations from a re-analysis of the deposited data

How the results depend on the processing

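All values come from pooled tables without replicates, so that leaving out a library was not possible and no result has a test. No paired analysis was possible because the tables hold no column per library. The gain of 13 connections over the 7 genes was 16 with all listed pairs, 9 with the power-law score, 9 with equal numbers of top pairs from both tables, and 5 with scores above 0.1. The gain of Cxcl10, 4, was 2 with the power-law score or equal numbers of top pairs and 1 with all listed pairs or scores above 0.1, and that of Art3, 3, was 1 with either of the last 2. With scores above 0.1 the gain of Cxcl9, 3, was 1 and that of Sdad1, 2, was 0, with 0 in both conditions. Naaa had 1 connection fewer in IFN-γ-OPCs, but with the power-law score it had 1 in both conditions and with all listed pairs 3 more pairs. The gain of Cxcl11, 2, was 1 with the power-law score or equal numbers of top pairs, and Nup54 went from 1 to 0 with the latter and from 1 to 3 with all listed pairs. The median log2 ratio of the totals, 0.62, was 0.67 after division by each table's median and 0.71 with the power-law total, where all 7 genes stayed higher. For the matched elements the median log2 activity ratio of 0.41 was 0.51 after scaling, 0.63 in 5 kb bins and 0.32 per base, where 2 rather than 3 of 8 were at least 2-fold higher. This per-base value and the summing of the 2 control intervals at E08 were chosen after seeing the data. The median log2 contact ratio of -0.034 was -0.044 without the added constant. Elements shared by chemokines and neighbours in IFN-γ-OPCs numbered 6, and were 3 with scores above 0.05 and 1 with scores above 0.1. A reciprocal overlap of 50% left the locus medians of activity and contact as they were, while the medians over all features became -0.073 for activity and 0.049 for contact. Scores under 0.02 are outside what the tables can show, and depth is unknown.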

Other observations

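Contact in HiChIP was also set against the contact that the model's power law predicts from distance alone. Over pairs of the 7 genes the median ratio of measured to predicted contact was 0.361 in Ctr-OPCs against 0.492 in IFN-γ-OPCs, and over all pairs it was 0.448 and 0.486. For pairs 20 to 80 kb apart the medians were 0.492 (12 pairs) and 0.566 (22 pairs) at the locus, and 0.477 and 0.528 over all genes. Of the pairs of the 7 genes, 1 of 21 in Ctr-OPCs against 5 of 37 in IFN-γ-OPCs had more contact than the power law predicts, where 17.0% and 20.4% of all pairs did. The highest was Sdad1 with E13, 71.5 kb apart in IFN-γ-OPCs, with a contact of 0.0289 where 0.0122 was predicted, a ratio of 2.37. Sdad1 with E10 had ratios of 0.601 in Ctr-OPCs against 1.22 in IFN-γ-OPCs, and Sdad1 with E11 had 1.21 and 0.551. Without replicates the spread of these values is unknown.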
